A study of Mus musculus with 7 samples.

Results

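Expression of 10 skeletal muscle genes was followed in mouse neural stem cell cultures by RNA sequencing: the transcription factors Myod1 and Myog, the acetylcholine receptor subunit Chrna1, and the structural genes Des, Acta1, Actc1, Tnnt1, Tnnt2, Mylpf and Myl1. They were chosen by symbol from a table of 18145 genes, with earlier results of these data known, and all 10 passed the filter on low values that 18134 genes passed. The 7 libraries came from cells at passage 1: 3 lines of wild type (WT, replicates 1 to 3), 2 lines with the genotype Tet-TFoCa (TFoCa, replicates 1 and 2) and 2 lines with the genotype Tet-TMut (TMut, replicates 1 and 2). The design text describes the libraries as separate lines and spells the second genotype Tet-FoCa; neither it nor the labels give the alleles, the step of 5-methylcytosine oxidation each genotype changes, the origin of the lines or their culture conditions. The series title sets hydroxymethylation of DNA against its formylation and carboxylation, which are successive products of the TET enzymes. Because the genes were chosen with those results known, their differences are given as a description, and no p-value is printed for them. Counts of calls among them stand only beside the share or number of all genes called and support nothing.

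Skeletal muscle arises mainly from the paraxial mesoderm, a lineage apart from the neural tube. Myod1 and Myog belong to the myogenic basic helix-loop-helix family, which binds E-boxes (CANNTG) together with E proteins and switches on the genes of muscle differentiation: Myod1 marks commitment to the lineage and Myog the differentiating cell. Their targets include the subunits of the muscle acetylcholine receptor and the proteins of the sarcomere, in which thin filaments of actin, tropomyosin and troponin slide along thick filaments of myosin. Serum response factor acts on many actin genes through the CArG box.

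Genes counted between 33340167 and 62545457 reads per library. The neural label was set beside the levels of 14 neural stem cell markers. Every gene with values had at least 71 reads over the 7 libraries, so being detected says nothing by itself. Vim, an intermediate filament gene of progenitors, ranged from 65556 to 113661 normalized counts, Msi1 from 4112 to 23704 and Nes from 9651 to 21385. The summed level of the 14 markers was 0.81 and 0.87 of the WT mean in the TFoCa replicates and 0.78 and 0.65 in the TMut replicates. Vim makes up most of the sum in TMut, where it rose by 0.66 ± 0.12 (limma, adjusted p = 0.00411); the median log2 difference of the 14 markers was −0.61 in TFoCa and −2.29 in TMut. In TFoCa versus WT 0 of these genes rose and 2 fell, against 5.25% and 3.52% of all genes tested. In TMut versus WT 1 rose and 12 fell, against 18.4% and 20.4%. The 12 neuronal genes summed to 0.71 and 0.77 of the WT mean in TFoCa, where 0 rose and 1 fell, and to 0.26 and 0.15 in TMut, where 0 rose and 11 fell. The 10 measured glial genes summed to 0.72 and 0.92 in TFoCa, where 1 rose and 1 fell, and to 0.40 and 0.28 in TMut, where 0 rose and 8 fell. In a bulk library, fewer cells of a type and less RNA per cell cannot be told apart.

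Promoter sequences are shown for 4 of the genes because they hold the letters that the myogenic factors and serum response factor bind. Each line gives the 250 bases before the start of the gene in RefSeq on GRCm38.p6, a build other than the mm39 of the deposited table, read 5′ to 3′ on the strand of the gene. Capitals mark E-boxes (CANNTG), CArG boxes and TATAAA.
Myog (chr1:134289754-134290003, + strand): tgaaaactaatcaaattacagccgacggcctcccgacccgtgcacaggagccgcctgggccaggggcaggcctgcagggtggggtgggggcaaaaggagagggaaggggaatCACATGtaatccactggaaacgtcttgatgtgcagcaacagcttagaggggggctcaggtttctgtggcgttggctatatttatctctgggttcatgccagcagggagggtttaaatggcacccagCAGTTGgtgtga
Chrna1 (chr2:73580339-73580588, - strand): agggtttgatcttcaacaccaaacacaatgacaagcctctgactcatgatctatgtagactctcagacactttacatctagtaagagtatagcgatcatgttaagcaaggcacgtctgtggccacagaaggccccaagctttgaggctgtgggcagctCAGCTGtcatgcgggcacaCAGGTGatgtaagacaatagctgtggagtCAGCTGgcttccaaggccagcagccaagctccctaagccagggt
Acta1 (chr8:123894776-123895025, - strand): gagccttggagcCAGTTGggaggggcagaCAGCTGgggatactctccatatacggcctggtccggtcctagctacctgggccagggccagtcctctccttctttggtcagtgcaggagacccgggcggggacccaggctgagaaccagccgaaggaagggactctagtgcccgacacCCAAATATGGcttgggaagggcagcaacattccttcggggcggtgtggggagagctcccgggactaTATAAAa
Actc1 (chr2:114052876-114053125, - strand): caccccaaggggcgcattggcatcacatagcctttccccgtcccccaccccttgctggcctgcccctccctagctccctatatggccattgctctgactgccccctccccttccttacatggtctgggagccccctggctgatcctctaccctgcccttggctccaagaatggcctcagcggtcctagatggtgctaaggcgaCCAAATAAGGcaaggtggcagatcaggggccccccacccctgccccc
Positions are counted back from the base before the start, which is −1. In the Chrna1 window 3 E-boxes lay at −92, −73 and −44, and those at −92 and −44 read CAGCTG. The Myog window held E-boxes at −138 and −12. Acta1 and Actc1, the α-actins of skeletal and cardiac muscle, each held 1 CArG box, at −73 and −47.

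RefSeq entries were matched for 9 of the 10 genes, in 10 windows since Tnnt2 has 2. An E-box was found in 9 of 10 windows, the Actc1 window being the exception, against 66.2% of 32851 promoter windows of the same length; matches were sought on both strands, and the pattern CANNTG reads the same on both. CAGCTG, a form of the E-box and so counted in it too, was found in 6 of 10 windows, against 13% of all. The CArG box was found in 2 of 10, against 1.47%. For MEF2 only the strict pattern YTAWWWWTAR was sought, where Y is C or T, W is A or T and R is A or G. It was found in 0 of 10, against 2.92%. Looser matches were not counted, such as ctatatttat in the Myog window, which differs from the pattern in its last base. TATAAA was found in 3 of 10, against 12.4%. The letters TCAGGTT, sought after the other motifs had been fixed, were found in 1 of 10, at −84 in the Myog window, against 3.49%. The ratio of observed to expected CpG, the dinucleotide that TET enzymes act on when it is methylated, ranged from 0 to 0.439 in these windows, against a median of 0.374 over 32848. A match describes the letters alone, and nothing in the data measures binding or DNA methylation there. Bases outside the windows were not searched, so the absence of a match, as in Actc1, holds for the window only.

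Myod1, the lineage-determining factor, stood at 78.5, 31.7 and 80.5 normalized counts in WT replicates 1 to 3, at 418 and 419 in the TFoCa replicates and at 41.5 and 36.0 in the TMut replicates. These rest on 100, 50 and 70 reads in WT, 436 and 344 in TFoCa and 36 and 30 in TMut. Both TFoCa libraries were far above all 3 WT libraries and nearly equal to each other, and the TMut libraries lay within the range of WT. Values are differences of log2(normalized count + 1) ± SE from the limma model over the 3 genotypes: 2.81 ± 0.43 for TFoCa versus WT, and −0.59 ± 0.43 for TMut versus WT.

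Myog, which acts at differentiation, stood at 163, 88.1 and 131 normalized counts in WT, at 525 and 1251 in TFoCa and at 157 and 197 in TMut. Both TFoCa libraries lay above WT, replicate 2 at 2.38 times the level of replicate 1, and TMut overlapped with WT. The log2 difference was 2.704 ± 0.406 in TFoCa versus WT, 0.50 ± 0.41 in TMut versus WT and −2.20 ± 0.45 in TMut versus TFoCa. For Myod1 the TFoCa lines were 0.0037 log2 units apart, against 1.25 for Myog.

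Chrna1, the α subunit of the muscle acetylcholine receptor, had the fewest reads of the 10 genes. It stood at 43.9, 16.5 and 73.6 normalized counts in WT, at 248 and 290 in TFoCa and at 13.8 and 22.8 in TMut, from 12 and 19 reads in TMut. TFoCa was above WT in both libraries, and TMut replicate 2 lay above WT replicate 2, so that these groups overlapped. The log2 difference from WT was 2.79 ± 0.60 in TFoCa and −1.05 ± 0.60 in TMut. Against TFoCa, Chrna1 in TMut differed by −3.84 ± 0.65, and Myod1 by −3.40 ± 0.47, on the log2 scale.

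Des, which encodes the intermediate filament desmin, stood at 375, 299 and 396 normalized counts in WT, at 841 and 3420 in TFoCa and at 796 and 1287 in TMut. Every mutant library was above every WT library, but the TFoCa and TMut libraries overlapped. The log2 difference was 2.26 ± 0.52 in TFoCa versus WT and 1.51 ± 0.52 in TMut versus WT.

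The sarcomeric actins followed different courses. Acta1 stood at 723, 354 and 628 normalized counts in WT, at 646 and 3008 in TFoCa and at 1179 and 1078 in TMut. TFoCa replicate 1 lay inside the WT range and replicate 2 at 4.66 times its level, whereas both TMut libraries were above WT; the log2 differences from WT were 1.36 ± 0.59 in TFoCa and 1.05 ± 0.59 in TMut. Actc1 stood at 1349, 655 and 1183 in WT, at 2993 and 7140 in TFoCa and at 1129 and 875 in TMut. Both TFoCa libraries were above WT and TMut overlapped with WT, with log2 differences from WT of 2.19 ± 0.41 and −0.03 ± 0.41. The coding sequences of the actin paralogs are close, and how reads that fit several genes were counted is not given in the sources used here, so the split between Acta1, Actc1 and other actins is uncertain.

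Tnnt1 and Tnnt2 encode the troponin T of slow skeletal and of cardiac muscle, the second also made in immature skeletal muscle. Tnnt1 was the most even of the 10 genes, at 365, 355 and 365 normalized counts in WT, 998 and 1450 in TFoCa and 735 and 806 in TMut. The 3 groups were fully apart, in the order TFoCa, TMut, WT. The log2 difference from WT was 1.73 ± 0.18 in TFoCa and 1.09 ± 0.18 in TMut. Tnnt2 stood at 310, 192 and 245 in WT, at 526 and 2216 in TFoCa and at 669 and 437 in TMut. Every mutant library was above WT, and TFoCa and TMut overlapped; the log2 differences from WT were 2.14 ± 0.55 and 1.14 ± 0.55.

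Mylpf and Myl1 encode the regulatory and the essential light chain of fast myosin. Mylpf stood at 642, 675 and 552 normalized counts in WT, 854 and 2012 in TFoCa and 1103 and 1216 in TMut. Its mutant libraries were all above WT, with log2 differences of 1.08 ± 0.32 in TFoCa and 0.90 ± 0.32 in TMut. Myl1 stood at 257, 122 and 200 in WT, 278 and 1153 in TFoCa and 290 and 232 in TMut. TFoCa replicate 1 was just above the highest WT library and TMut overlapped with WT, with log2 differences of 1.61 ± 0.57 and 0.49 ± 0.57.

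**Figure D1:**
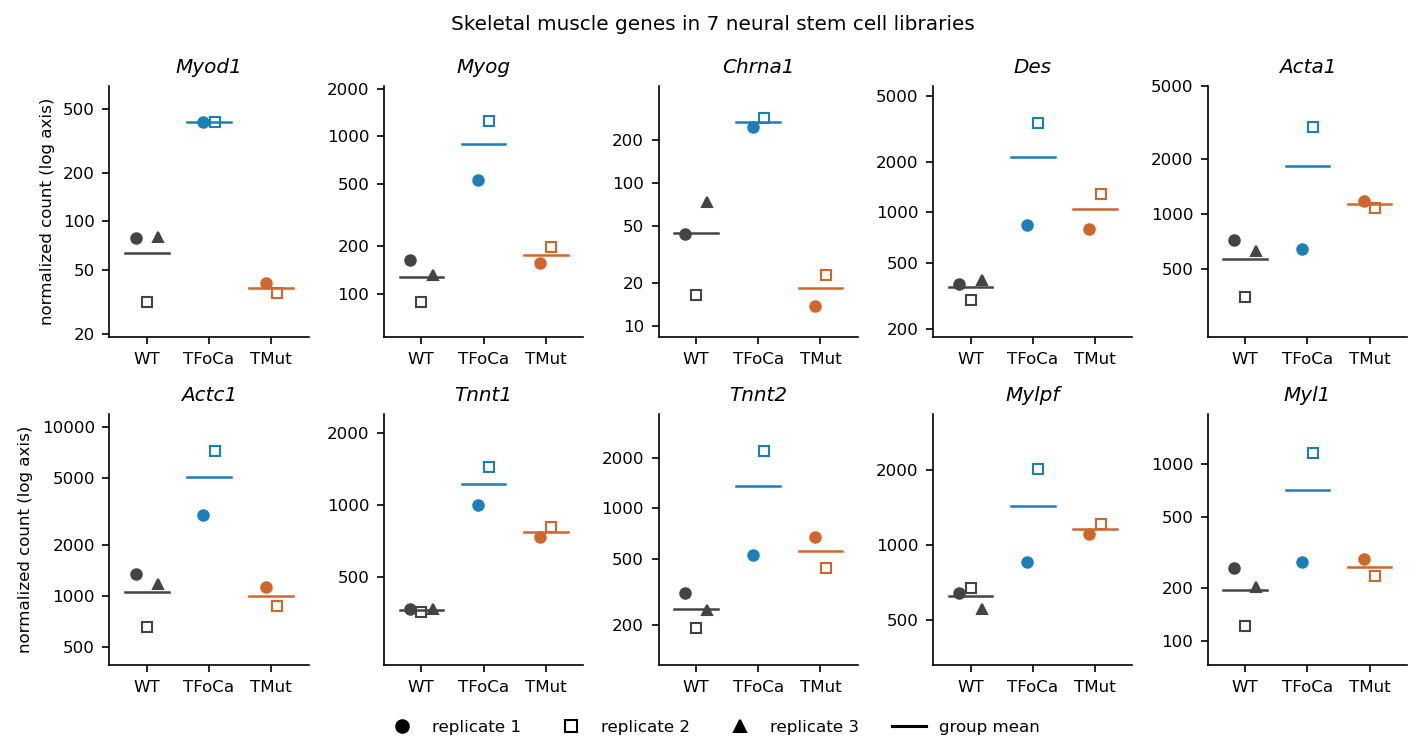
Normalized counts on a log axis for the 10 genes in each of the 7 libraries, by genotype, with a marker shape for each replicate number and a line at the group mean. The TFoCa libraries of Myod1 coincide at 418 and 419, while those of Acta1 lie at 646 and 3008.

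Levels of different genes were compared per kilobase of exon, with exon lengths from another build (GENCODE M21 on GRCm38). Each length is the union of all annotated exons of the gene, which can exceed the length of its transcripts. In WT the mean normalized count per kilobase was highest for Actc1 (656.5) and Mylpf (587) and lowest for Tnnt2 (32.1) and Chrna1 (10.2), with Myod1 at 34.15 and Myog at 85.3. In TFoCa the highest were Actc1 at 3131 and Mylpf at 1349, while Chrna1 was at 61.3. In TMut Mylpf stood at 1092, Acta1 at 734.9 and Actc1 at 619.3, while Myod1 was at 20.82. By this measure the structural genes were read at higher levels than the receptor and Myod1 in each genotype, apart from Tnnt2 beside Myod1 in WT and TFoCa. Tnnt2 and Chrna1 had the longest unions of the 10 genes, 7.752 and 4.386 kilobases. Their low places, and the Tnnt2 exception, depend on the length used.

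Across the 10 genes, the median log2 difference from WT was 2.16 in TFoCa and 0.70 in TMut, against −0.02 and 0.002 over all 18134 genes tested. TFoCa lay wholly above WT in 9 of the 10 genes, Acta1 being the exception, where 21% of all genes tested did so. TMut lay wholly above WT in 5 (Des, Acta1, Tnnt1, Tnnt2 and Mylpf), against 33.4% of all genes, and wholly below TFoCa in 5 (Myod1, Myog, Chrna1, Actc1 and Tnnt1), against 33.5%. At an adjusted p under 0.05 in the limma model, 6 of the 10 were called higher in TFoCa versus WT (Myod1, Myog, Chrna1, Des, Actc1 and Tnnt1), against 5.25% of all genes tested. In TMut versus WT 1 was called higher (Tnnt1), against 18.4%, and in TMut versus TFoCa 5 were called lower (Myod1, Myog, Chrna1, Actc1 and Tnnt1), against 18.5%. The genes were chosen with earlier results of these data known, so nothing is read from the counts. Without TFoCa replicate 2 the median in TFoCa versus WT was 1.35. Omitting WT replicate 2 lowered the number of the 10 called higher in TFoCa versus WT to 3, while over all genes that number went from 952 to 375. In TMut versus WT 3 of the 10 were called without WT replicate 2, of which 1 was higher and 2 lower, while 4861 were called over all genes. In TMut versus TFoCa 4 of the 10 were called without WT replicate 2, while 5018 were called over all genes.

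**Figure D2:**
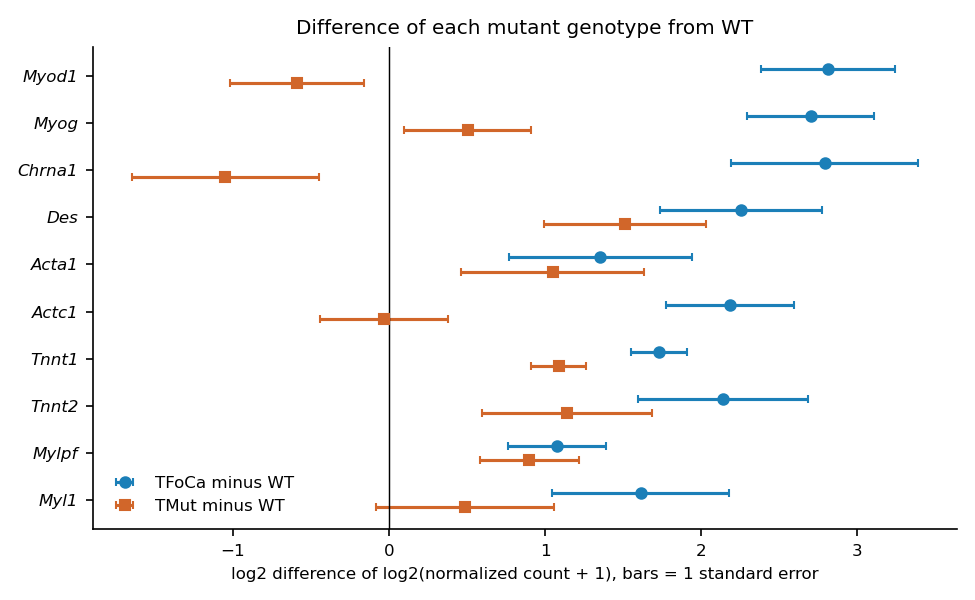
Log2 differences (± SE) of the 10 genes in TFoCa and in TMut versus WT, from log2(normalized count + 1). All 10 are above 0 in TFoCa, from 1.08 for Mylpf to 2.81 for Myod1, and in TMut they run from −1.05 for Chrna1 to 1.51 for Des; the 2 comparisons share their WT libraries.

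The TFoCa lines differed from each other for most of the genes. TFoCa replicate 2 was above replicate 1 in 10 of 10, by a median of 1.25 on the log2 scale, and by 1 or more in 7, where 6.5% of all genes tested were. The ratio of replicate 2 to replicate 1 was 4.07 for Des, 4.66 for Acta1, 4.22 for Tnnt2 and 4.15 for Myl1. It was 2.38 for Myog, 2.385 for Actc1, 2.36 for Mylpf, 1.45 for Tnnt1 and 1.17 for Chrna1. The ratio was highest in 4 structural genes, while Tnnt1 and Mylpf, also structural, lay below Myog; it was lowest in Myod1 and Chrna1. Set against the WT mean, replicate 1 was higher by 0.25 log2 units for Acta1, 0.46 for Mylpf, 0.59 for Myl1, 1.10 for Tnnt2 and 1.25 for Des, where replicate 2 was higher by 2.47, 1.70, 2.64, 3.18 and 3.27. For Myod1 the values were 2.81 and 2.82, and for Chrna1 2.68 and 2.90. With 1 library per line, whether the lines differ beyond the spread within a line was not measured.

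**Figure D3:**
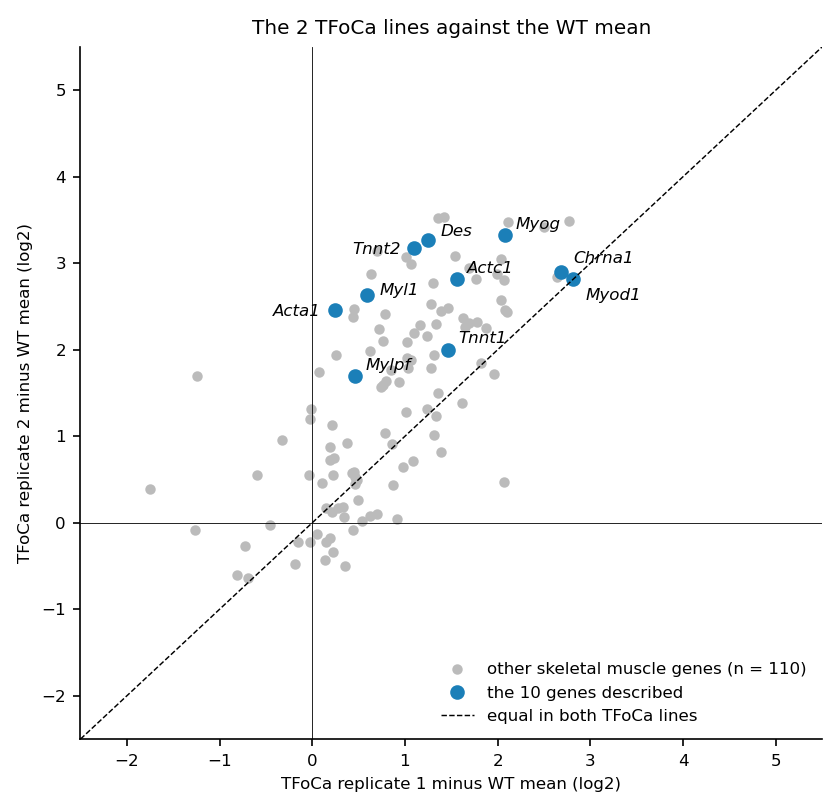
Log2 difference from the WT mean in TFoCa replicate 1 (x axis) and TFoCa replicate 2 (y axis) for the 10 genes (blue) and 110 other skeletal muscle genes (grey), with a dashed line where both are equal. Myod1 lies on the line, and Acta1 is at 0.25 and 2.47.

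The WT lines also differed for these genes. WT replicate 2 was the lowest of the WT libraries for 9 of the 10, Mylpf being the exception, whereas it was the lowest for 28.9% of all genes tested. The highest and lowest WT library were 2.09 log2 units apart for Chrna1, 1.32 for Myod1, 1.07 for Myl1, 1.04 for Actc1 and 1.03 for Acta1, but 0.04 for Tnnt1 and 0.29 for Mylpf. WT replicate 2 also had the most reads in genes of the 7 libraries, 62545457; the part of depth in these values was not tested.

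The wider muscle program was followed in a list of 129 other skeletal muscle genes, of which 110 had values. The other 19 had none and were not analysed here, among them Myf5, Myf6, Myh1, Myh2, Myh4 and Ckm. The counts below cover only genes with values. The list was drawn up with the earlier results known. In TFoCa versus WT 38 of the 110 rose and 0 fell by limma with Benjamini-Hochberg adjustment, against 5.25% and 3.52% of all genes tested; 95 had a log2 difference above 0, with a median of 1.17. In TMut versus WT 20 rose and 11 fell, against 18.4% and 20.4% of all genes, with a median of 0.16. In TMut versus TFoCa 11 rose and 36 fell, against 17.3% and 18.5%, with a median of −0.72. Leaving out WT replicate 1, 2 or 3 gave 19, 10 or 12 called genes in TFoCa versus WT, and leaving out TFoCa replicate 2 gave 21, of which 20 were higher and 1 lower. The median stayed between 0.79 and 1.44 when a library was left out. TFoCa replicate 2 was above replicate 1 for 81 of the 110, by a median of 0.55, against 9109 of 18134 genes and a median of 0.003. The sums, which abundant genes dominate, ran otherwise. They were 1.33 and 1.27 of the WT mean in TFoCa replicates 1 and 2, and 1.39 and 1.41 in the TMut replicates.

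Among upstream and partner transcription factors 4 of 12 rose and 0 fell in TFoCa. Mef2d, a partner of the myogenic factors, rose by 0.52 ± 0.09 in TFoCa (limma, adjusted p = 0.0141), a call lost without WT replicate 2 or 3. Tcf12, an E protein, differed by −1.23 ± 0.15 in TMut (limma, adjusted p = 0.000706). In TMut 3 of the 12 rose and 1 fell. For this role and those below, the shares of all genes tested are 5.25% rising and 3.52% falling in TFoCa versus WT. In TMut versus WT they are 18.4% and 20.4%. Nothing about a role is read from a count near these shares.

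Of 11 genes of the myoblast surface and of fusion, 5 rose and 0 fell in TFoCa, while 4 rose and 1 fell in TMut. Cdh15, the M-cadherin of myoblasts, stood at 76.9, 75.4 and 97.8 normalized counts in WT, 521 and 601 in TFoCa and 89.8 and 120 in TMut, and rose by 2.74 ± 0.25 in TFoCa (limma, adjusted p = 0.00242). Its difference in TMut versus WT was 0.32 ± 0.25 (adjusted p = 0.342). Myof, a ferlin of membrane fusion and repair also made outside muscle, rose by 1.83 ± 0.13 in TFoCa and 2.77 ± 0.13 in TMut (limma, adjusted p = 0.00124 and 4.34e-05). Jam2, an adhesion molecule, differed by −2.003 ± 0.157 in TMut (limma, adjusted p = 0.00017).

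The other acetylcholine receptor and endplate genes rose in 3 of 8 cases and fell in 0 in TFoCa; in TMut 1 rose and 3 fell. Chrng, the γ subunit of the fetal receptor, stood at 25.9, 26.6 and 44.9 normalized counts in WT, 182 and 344 in TFoCa and 36.9 and 60.0 in TMut. Its rise in TFoCa was 2.96 ± 0.43 (limma, adjusted p = 0.00942). Chrnb1, the β subunit, rose by 1.70 ± 0.30 in TFoCa (limma, adjusted p = 0.0149, lost without WT replicate 2 or 3) and by 1.62 ± 0.30 in TMut (adjusted p = 0.00458). Ache, which encodes acetylcholinesterase and is also expressed by neurons, differed by −1.49 ± 0.29 in TMut (limma, adjusted p = 0.00604).

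Of 13 thick filament genes 3 rose in TFoCa and 1 in TMut, and 0 fell in either. Myom1, of the M band, rose by 1.53 ± 0.27 in TFoCa (limma, adjusted p = 0.0143), and Mybpc1, a myosin-binding protein, by 1.84 ± 0.41 (adjusted p = 0.0329). The Myom1 call was lost without WT replicate 2 or 3, and that of Mybpc1 without any of the WT or TFoCa libraries. Myl3, a slow light chain with 2.54 to 17.3 normalized counts in WT and 44.9 and 31.2 in TMut, rose by 2.21 ± 0.74 in TMut (limma, adjusted p = 0.0482), a call lost without WT replicate 1 or 2, TFoCa replicate 1 or either TMut library. Myh3, embryonic myosin heavy chain, is named after its values were seen: it stood at 1205, 678 and 957 in WT, 2477 and 10661 in TFoCa and 1763 and 1005 in TMut. It rose by 2.48 ± 0.57 in TFoCa (limma, adjusted p = 0.0363), and the call was lost without any 1 of the WT libraries or without TFoCa replicate 2.

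Thin filament genes beside the actins and troponin T numbered 15, of which 6 rose and 0 fell in TFoCa, and 3 rose and 0 fell in TMut. Both leading genes were tropomyosins that are also made in smooth muscle and non-muscle cells. Tpm1 stood at 7146 to 8138 normalized counts in WT, 19693 and 13228 in TFoCa and 52170 and 54983 in TMut, rising by 1.10 ± 0.17 and 2.83 ± 0.17 (limma, adjusted p = 0.00996 and 7.14e-05). Tpm2 rose by 1.15 ± 0.11 in TFoCa and 2.20 ± 0.11 in TMut (limma, adjusted p = 0.00277 and 5.34e-05).

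Among 17 genes of the Z disc, titin and chaperones, 8 rose and 0 fell in TFoCa, and 6 rose and 1 fell in TMut. Unc45b, the chaperone of muscle myosin, stood at 51.8, 24.7 and 47.2 normalized counts in WT, 274 and 453 in TFoCa and 255 and 438 in TMut, and rose by 3.13 ± 0.42 in TFoCa (limma, adjusted p = 0.00711). Flnc, filamin C, rose by 1.16 ± 0.13 in TFoCa and 2.20 ± 0.13 in TMut (limma, adjusted p = 0.0038 and 7.34e-05). Fhl3, a LIM protein, rose by 1.96 ± 0.16 in TMut (limma, adjusted p = 0.000181).

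Of 17 genes of excitation and calcium handling, 5 rose and 0 fell in TFoCa, and 1 rose and 2 fell in TMut. Atp2a1, the calcium pump of fast fibers, rose by 2.00 ± 0.40 in TFoCa (limma, adjusted p = 0.0227), and Ryr1, the calcium release channel, by 0.92 ± 0.17 (adjusted p = 0.0198). Both calls were lost without WT replicate 2, WT replicate 3 or TFoCa replicate 2, and that of Ryr1 also without WT replicate 1. In TMut the chloride channel Clcn1 differed by −1.84 ± 0.26 (limma, adjusted p = 0.00139). Cacnb1, a calcium channel subunit, differed by −0.93 ± 0.21 in TMut (limma, adjusted p = 0.0107, lost without TMut replicate 2).

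The membrane complex had 9 genes, of which 3 rose and 0 fell in TFoCa, and 1 rose and 2 fell in TMut. Sgcd, a sarcoglycan, rose by 2.05 ± 0.40 in TFoCa (limma, adjusted p = 0.022), a call lost without any 1 of the WT libraries or TFoCa replicate 2. Dysf, dysferlin, stood at 133 to 173 normalized counts in WT and at 2030 and 3156 in TMut, a rise of 4.07 ± 0.39 (limma, adjusted p = 0.000309). Cav3, muscle caveolin, was at 29.8, 8.87 and 18.4 in WT and at 0 in both TMut libraries, and passed the test as lower (limma, adjusted p = 0.00285); with a floor of 3 reads over the group, it was at least 10.8-fold lower.

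Of 8 energy enzymes 1 rose and 0 fell in TFoCa, and 0 rose and 1 fell in TMut. Pygm, muscle glycogen phosphorylase, rose by 1.22 ± 0.29 in TFoCa (limma, adjusted p = 0.0415), a call lost without any 1 of the libraries other than TFoCa replicate 1. Eno3, muscle enolase, differed by 0.46 ± 0.17 in TFoCa (limma, adjusted p = 0.147). Cox6a2 differed by −2.60 ± 0.88 in TMut (limma, adjusted p = 0.049), and its call was lost without any 1 of the libraries other than WT replicate 1.

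**Figure D4:**
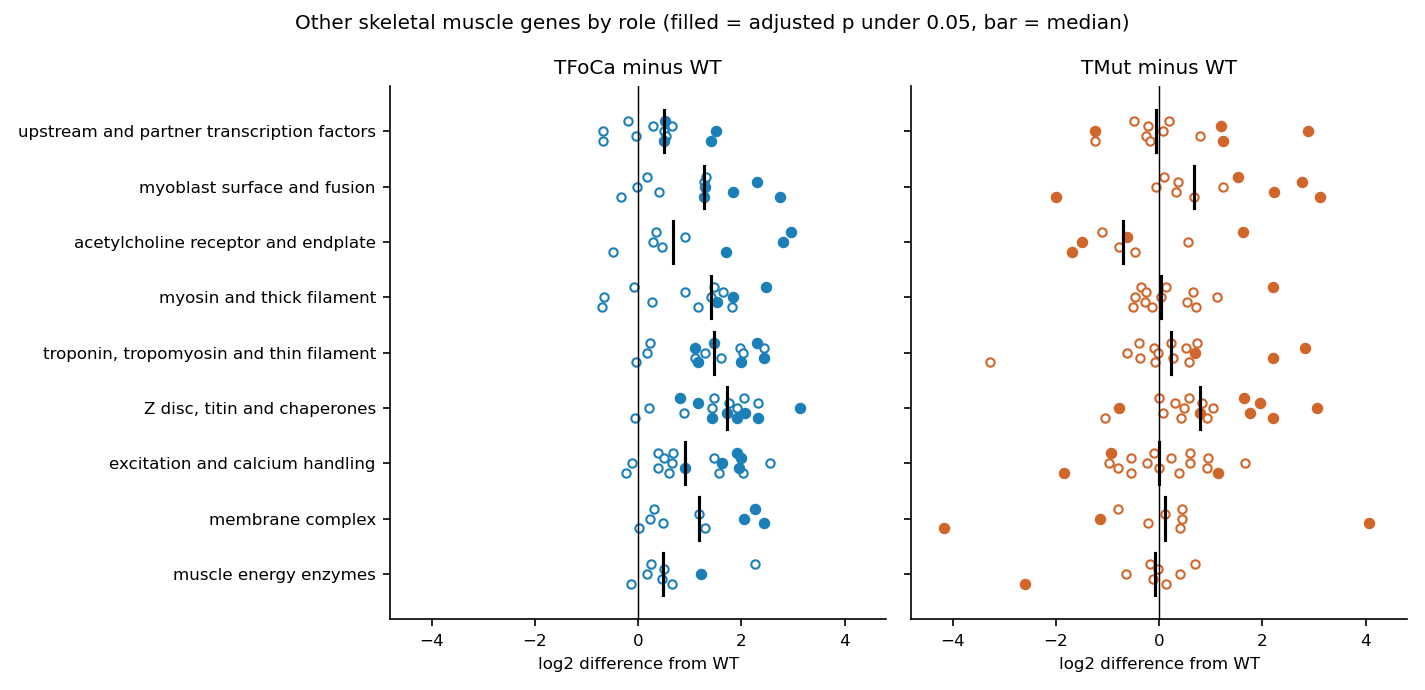
Log2 differences of the 110 other skeletal muscle genes, 1 point a gene, by role, for TFoCa versus WT and TMut versus WT, filled where the adjusted p (limma) is under 0.05, with a bar at the median; the lowest membrane complex point in TMut is Cav3, whose place depends on the pseudocount. In TFoCa the median is above 0 in each of the 9 roles, from 0.48 for energy enzymes to 1.72 for Z disc genes, and in TMut it runs from −0.69 for receptor and endplate genes to 0.80 for Z disc genes.

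Markers of other mesenchymal and muscle cell types were measured in the same libraries, and their part in the muscle gene values was not tested. Over all genes tested 5.25% rose and 3.52% fell in TFoCa versus WT, and 18.4% and 20.4% in TMut versus WT. The 10 skeletal muscle genes summed to 2788 to 4307 normalized counts in WT, 8327 and 22358 in TFoCa and 6114 and 6187 in TMut. Of 15 mesenchymal and fibroblast genes 11 rose and 0 fell in TFoCa, and 6 rose and 3 fell in TMut, with sums of 194750 to 220650 in WT, 514520 and 585570 in TFoCa and 437500 and 330390 in TMut. Col3a1, a fibrillar collagen, rose by 1.24 ± 0.14 in TFoCa (limma, adjusted p = 0.00384). Of 13 smooth muscle genes 3 rose and 0 fell in TFoCa, and 9 rose and 1 fell in TMut, with sums of 10754 to 12804, 23277 and 13297, and 35942 and 40432. Acta2, smooth muscle actin, stood at 981 to 1716 normalized counts in WT, 4872 and 2003 in TFoCa and 19465 and 23381 in TMut. TFoCa replicate 2 was above replicate 1 in 2 of the 13 smooth muscle genes, 11 of the 15 mesenchymal genes, 7 of the 10 neural crest genes and 10 of the 10 skeletal muscle genes; these counts were not tested against each other.

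Of 13 cardiac genes with values, 0 rose and 0 fell in TFoCa, and 5 rose and 1 fell in TMut; the sums were 2187 to 2822 in WT, 2648 and 2028 in TFoCa and 2207 and 2953 in TMut. The median log2 difference of these 13 genes from WT was −0.27 in TFoCa and 1.305 in TMut, where 9 were above 0. Tnni3, cardiac troponin I, went against most of the list in TMut, at −0.65 ± 0.32 (limma, adjusted p = 0.143). It stood at 262 to 463 normalized counts in WT, 194 and 330 in TFoCa and 253 and 199 in TMut. Of 12 paraxial mesoderm and somite genes 4 rose and 0 fell in TFoCa, and 5 rose and 2 fell in TMut, with sums of 1.02 and 1.13 of the WT mean in TFoCa and 0.49 and 0.54 in TMut. The median log2 difference of these 12 genes was 0.81 in TFoCa and 1.59 in TMut, opposite in direction to the sum in TMut, where the abundant Dll3 and Uncx differed by −2.77 ± 0.27 and −4.40 ± 0.58 (limma, adjusted p = 0.000336 and 0.00109). Of 10 neural crest genes 3 rose and 0 fell in each mutant genotype, with sums of 1.84 and 2.22 of the WT mean in TFoCa and 1.91 and 2.23 in TMut. The shares of all genes tested differ between the genotypes: 5.25% rose and 3.52% fell in TFoCa, and 18.4% and 20.4% in TMut. The lists share genes, so their counts are not separate. Sox10 is in the glial and neural crest lists, and Pdgfra in the glial and mesenchymal lists. Twist1 and Snai2 are in the neural crest list and among the genes that restrain the myogenic factors, described last. Some genes of these lists had no values and were not analysed here. They were Myocd of the smooth muscle list and Tcf21 of the mesenchymal list. Tbx5, Mybpc3, Nppa, Pln and Kcnq1 of the cardiac list were also among them, as were Msgn1, Mesp1 and Ripply2 of the paraxial mesoderm list.

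**Figure D5:**
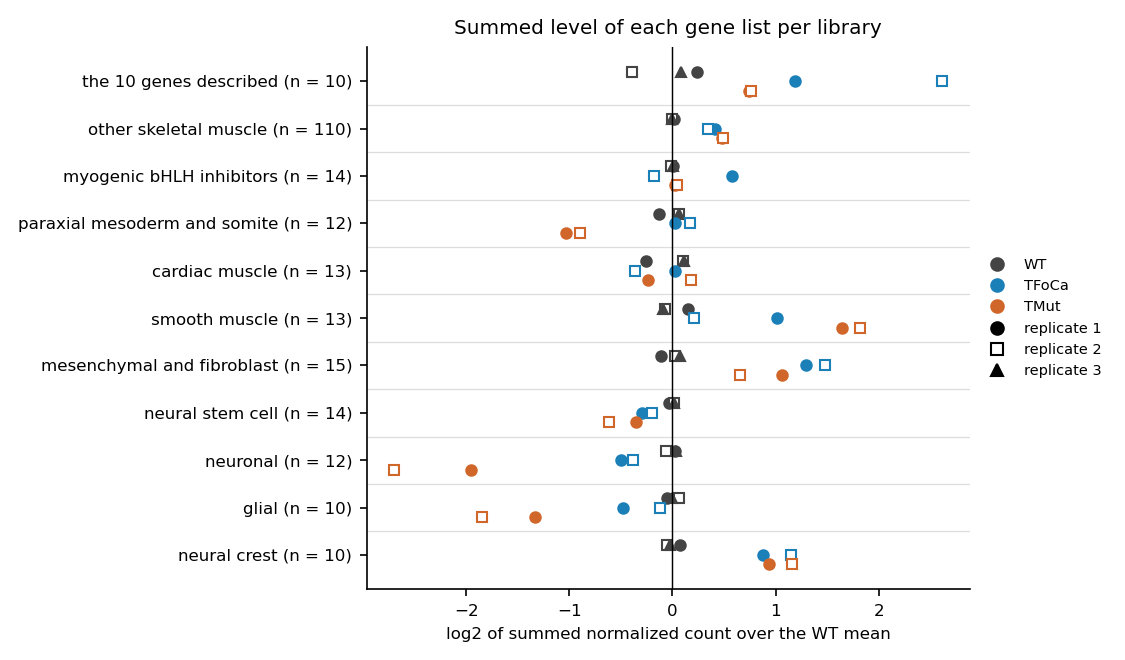
Summed normalized counts of each gene list in each library, divided by the WT mean of that list and plotted as log2, with colour for genotype and shape for replicate. As ratios, the 10 skeletal muscle genes reach 2.28 and 6.13 in TFoCa and 1.68 and 1.70 in TMut, and the neuronal list is at 0.26 and 0.15 in TMut.

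The mean profile of the 10 genes over the 7 libraries, each scaled to its own mean and SD, was set beside 13188 other genes with a mean of 100 or more normalized counts. The most alike were B4galt3 (Pearson r = 0.993), Rgl1 (0.985), Edem3 and Arl4c (both 0.983), B3galnt1 (0.979), Fam149a (0.978), Trak2 (0.977) and Nav1 (0.975). None of these 8 was in a muscle or cell type list. Myog, Des, Tnnt2 and Myl1 lie on chromosome 1. The chromosomes of the 8 genes and the copy number in each line were not looked at. The part of shared position or copy number in this likeness was therefore not tested. B4galt3, a galactosyltransferase gene, stood at 1953, 1807 and 1883 normalized counts in WT, 2275 and 2997 in TFoCa and 2092 and 2125 in TMut, so that a profile of like shape spanned a much smaller range of levels. The points are the same 7 libraries in every case, and the correlations are a description.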

How the data were processed

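RNA of mouse neural stem cells was sequenced in 3 WT, 2 TFoCa and 2 TMut libraries. The deposited table holds normalized counts (signal), gene counts that the authors divided by a DESeq2 size factor per library. The tools named in the submitters' processing notes are DESeq2, featureCounts, SAMtools, STAR 2.7.3a and Trim Galore 0.6.5, with build mm39; annotation, strand and settings are not given in the sources used here. Whole reads were recovered within 0.001 read for 100% of values. Even numbers made up 70.29% to 79.32% of the low counts (1 to 20 reads), a pattern that counting each mate of a read pair would give, so count models may overstate precision. Genes with 10 or more normalized counts in at least 2 libraries (18134 of 18145) were fitted on log2(normalized count + 1), a scale that understates the change of low genes, by limma 3.58.1 with a trend in R 4.3.3. The 3 genotypes formed 1 model with 4 residual degrees of freedom. Genes with a Benjamini-Hochberg adjusted p under 0.05 over all genes tested were called. The model was also run on simulated counts, drawn gene by gene without a difference between lines that genes share. The outcome of that run is not reported here, so it lends no support to the calls. Lines are the replicates, and their number limits the precision.

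The 10 genes, the lists and the naming rule were chosen with earlier results of these data known. The rule names the 10 genes, the 2 genes of each role of the muscle list with the smallest adjusted p in each mutant versus WT, the 8 genes most alike in profile, and the 3 most abundant genes of each other list, of which some are printed; some genes the rule names are not reported here. Alternatives were pseudocounts of 8 and 0.5, no filter, a mean of 50 or more, TMM factors, edgeR 4.0.16 and DESeq2 1.42.0 on recovered reads, a fit to 2 genotypes, a replicate block, and leaving out each library.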

Additional observations from a re-analysis of the deposited data

How the results depend on the processing

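The 16 alternatives left the direction of all 10 genes in TFoCa versus WT as reported, and 144 of 160 values moved by less than the replicate spread. The other 16 leave out a TFoCa library. Some of the 144 could not move: filters, a fit to 2 genotypes and leaving out a TMut library do not change these differences. The replicate block gave the same differences as leaving out WT replicate 3. The count thus overstates how far stability was tried. In TMut versus WT the sign changed in 5 of 160 values, all of Actc1 (−0.35 to 0.18). In TMut versus TFoCa it changed in 4, without TFoCa replicate 2: Acta1 0.80, Des 0.27, Mylpf 0.44 and Tnnt2 0.04. Of the other muscle genes, 9 of the 38 called in TFoCa versus WT were called in every alternative, as were 22 of the 31 in TMut versus WT and 30 of the 47 between the mutants.

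Over all genes, 1590 were called in TFoCa versus WT, 2947 by DESeq2 and 495 to 1768 without a library. In TMut versus WT 7043 were called, 4329 to 8127 without a library. In TMut versus TFoCa 6491 were called, 3419 in a fit to 2 genotypes and 3164 to 5940 without a library. Of the other muscle genes 38 were called in TFoCa versus WT, 62 by DESeq2 and 10 to 47 without a library; 31 in TMut versus WT (24 to 41) and 47 in TMut versus TFoCa (32 to 64). Of the 10 genes 6 were called in TFoCa versus WT (3 to 9 without a library); in TMut versus WT 1 was called, 3 with TMM factors, 3 by edgeR, 4 by DESeq2, 5 in a fit to 2 genotypes and 1 to 5 without a library; in TMut versus TFoCa 5 were called (3 to 10). Over all genes, TMut versus WT gave 7135 calls with TMM factors, 7038 by edgeR, 7664 by DESeq2 and 8102 in a fit to 2 genotypes. The counts of the 10 genes stand only beside these and the other counts over all genes. The causes were not tested.

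Replicate numbers were not taken as pairs. Deviations of same-numbered libraries correlated by 0.0192 to 0.185, and those of differently numbered libraries by −0.185 to 0.108. With 2 lines in each mutant genotype, the deviations of the 2 mirror each other. These values therefore cannot decide whether the numbers mark pairs. With the replicate block, 555 genes were called in TFoCa versus WT and 4620 in TMut versus WT, 11 of the other muscle genes and 2 of the 10 genes in TFoCa versus WT. Chrna1 in TMut rests on 12 and 19 reads, which limits its precision there.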

Other observations

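Genes that restrain the myogenic factors were looked at in the same libraries: Id proteins, which sequester E proteins, and repressors such as Hes1 and Twist1. Of 14 such genes 4 rose and 0 fell in TFoCa versus WT by limma with Benjamini-Hochberg adjustment, against 5.25% and 3.52% of all genes tested. In TMut versus WT 5 rose and 2 fell, against 18.4% and 20.4%. Their summed level was 37146 to 37856 normalized counts in WT and 38236 and 38767 in TMut. It was 56231 in TFoCa replicate 1 but 33171 in replicate 2. Replicate 2 was above replicate 1 in 5 of the 14. Id3 stood at 10613, 8972 and 10253 in WT, 17465 and 3690 in TFoCa and 11289 and 12607 in TMut. Id4 ran the other way between the TFoCa lines, at 3470 and 8365 against 7385 to 8705 in WT, and differed by −3.25 ± 0.47 in TMut versus WT (limma, adjusted p = 0.0016). Twist1 rose by 1.31 ± 0.19 in TFoCa (limma, adjusted p = 0.0084) and stood at 7481 and 4631 in its replicates, against 2212 to 2489 in WT. In TMut it rose by 1.25 ± 0.19 (limma, adjusted p = 0.00182). With 1 library per line, the relation of these genes to the muscle genes was not tested.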
